A study of Mus musculus with 2 samples.

Results

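The cells described here are tumour macrophages with RNA of the C1q complement chains and no detected RNA of the chemokine Cxcl9. They were selected on measured counts of unique molecular identifiers (UMIs, tagged RNA molecules) per cell barcode. Barcodes were kept if they showed 200 or more genes and if mitochondrial transcripts made up no more than 20% of their UMIs. A kept barcode was a member if it held at least 5 Lyz2 UMIs, at least 10 UMIs of C1qa, C1qb and C1qc together, no Cxcl9 UMI, and none of Cd3d, Cd3e, Cd79a, Hmga2 and Rhox5, genes of T cells, B cells and the tumour line. Of 22401 kept barcodes 1568 met the rule, 1183 of 9765 in the wild-type library (WT) and 385 of 12636 in the library from Dusp2-/- mice (KO). The study profiled the cells infiltrating tumours grown from LLC, the Lewis lung carcinoma cell line, by 10x Chromium 3' single-cell RNA sequencing. Both groups bore the same tumour line and differed, per the labels, in the Dusp2 genotype, with 1 library each. The labels give no treatment, age, sex, number of animals or sorting gate, and they name the extracted molecule differently for the libraries (total RNA in WT, polyA RNA in KO). No comparison of genotypes therefore has a replicate check, and all intervals below are exact 95% intervals that cover counting error only. The genes the rule read (Lyz2, the C1q chains and Cxcl9) are given as a description of how the cells were chosen.

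C1q, made of the chains C1qa, C1qb and C1qc, starts the classical complement cascade, and in many tissues macrophages are its main source. Tumour macrophages that express it often also express Apoe, a lipid carrier, Pf4, a platelet-type chemokine, and Mrc1, the mannose receptor CD206. Folr2, a folate receptor, marks macrophages with a resident-type programme in several tissues. Cxcl9 is a chemokine induced by interferon-gamma that draws T cells. Dusp2 is a nuclear phosphatase that removes activating phosphates from mitogen-activated protein kinases.

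The label was checked against 10 macrophage markers, of which the rule had read C1qa. They summed to 12743.5 CPM (counts per 1000000 UMIs of the class) in WT members and 10116.1 CPM in KO members, against 168 and 79.4 CPM in T barcodes. T barcodes were chosen without Csf1r, another of the 10, so part of this gap was fixed by the choice of cells. In barcodes that met the rule but held Cxcl9 the sum was 11559.8 and 10481.6 CPM. In the low-C1q Arg1 cells, defined below, it was 7536 and 6393 CPM. The sum thus does not set the members apart from C1q macrophages with Cxcl9. Apoe was detected in 94.3% (92.8 to 95.5) of WT and 87.0% (83.2 to 90.2) of KO members, against 29.8% and 10.3% of T barcodes. Pf4 was detected in 80.2% (77.8 to 82.5) and 65.2% (60.2 to 70.0) of members, against 13.4% and 3.15% of T barcodes. Csf1r, the receptor for the growth factor that sustains macrophages, was detected in 89.3% (87.4 to 91.0) and 77.7% (73.2 to 81.7) of members. T barcodes here, in which macrophage genes can come from free RNA, are those with at least 3 Cd3d and Cd3e UMIs and without Cd79a, Csf1r and tumour UMIs, 935 in WT and 1302 in KO. Genes of resident-type macrophages differed among themselves. Cd163, Lyve1 and Timd4 were rare, with at most 4.90% of members positive, the value of Lyve1 in WT. Folr2 was detected in 53.1% of WT and 40.3% of KO members, and Mrc1 in 93.9% and 82.9%. The labels name the cells tumour-infiltrating lymphocytes, but these members held Apoe, Pf4 and Csf1r RNA, with few cells positive for Cd163, Lyve1 or Timd4.

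The WT library holds 113873249 UMIs in 9890 barcodes and the KO library 101532711 in 12744. Members had a median of 9290 UMIs in WT and 6118 in KO. Markers of other cells differed by list. The summed level was 30.2 CPM in WT and 77.5 CPM in KO for 10 T-cell genes, and 11.4 and 43.6 CPM for 8 B-cell genes. It was 38.5 and 58.8 CPM for 10 neutrophil genes, Ly6g being at 0 in both, and 119 and 66.8 CPM for 10 fibroblast genes. A list of 8 plasmacytoid dendritic cell genes was higher, at 455 and 438 CPM, against 607 and 397 CPM in T barcodes. For 7 plasma-cell genes it was 218 and 257 CPM, against 122 and 143 CPM in T barcodes. Antibody genes differed most between the libraries. Their 11 genes summed to 30.3 CPM in WT members and 924.02 CPM in KO members, and 18.1% and 99.7% of members held at least 1 such UMI. T barcodes showed antibody RNA in the same order, 0.00946% of UMIs in WT and 0.116% in KO, against 0.00304% and 0.0964% in the members. The part of this RNA in the differences below was not tested. The libraries share 31 barcode sequences, but no barcode is a member in both.

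The members made up 12.1% (11.5 to 12.8) of kept barcodes in WT and 3.05% (2.75 to 3.36) in KO, log2 KO over WT -1.99. Among barcodes with at least 5 Lyz2 UMIs and no T, B or tumour UMI, the myeloid cells, they were 29.0% (27.6 to 30.4) and 24.8% (22.7 to 27.0), log2 -0.22. The gap was thus far smaller among the myeloid cells than among all kept barcodes. The exclusions removed unequal numbers from the libraries. Barcodes that failed the rule only on Cd79a numbered 6 in WT and 79 in KO. Those that failed only on Cd3d and Cd3e numbered 69 and 43, and those only on the tumour genes 294 and 98. The part of these exclusions in the shares was not tested. How the infiltrate was enriched is not given in the sources used, and its part in the share of kept barcodes was not tested. Without the Cxcl9 term 2228 WT and 750 KO barcodes met the rule, and 53.1% (51.0 to 55.2) and 51.3% (47.7 to 55.0) of these had no Cxcl9 UMI. A count of 0 depends on depth. When each cell was thinned to 2000 UMIs, 67.1% and 64.1% had none, and among WT cells with over 12000 UMIs only 42.7% had none, against 69.9% of those under 4000. The cells with Cxcl9 held a median of 7 Cxcl9 UMIs in each library. The class is cut from a count and is described as a range of the C1q macrophages, not as a cell type of its own.

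Just inside the limit of 10 C1q UMIs, 103 WT and 41 KO members had 10 to 14, and just outside it 119 and 69 barcodes had 5 to 9. Mrc1 was detected in 87.4% of the former in WT and 63.4% in KO, and in 84.9% and 55.1% of the latter. At the Cxcl9 limit, 218 WT and 71 KO barcodes had exactly 1 Cxcl9 UMI, and 93.6% and 78.9% of them had Mrc1 RNA. At the Lyz2 limit 31 WT and 8 KO members had 5 to 7 Lyz2 UMIs, and 22 and 6 barcodes had 2 to 4. Mrc1 was detected in 100% and 75.0% of the former and 86.4% and 66.7% of the latter. The cells near the C1q limit were shallower than the members as a whole, with medians of 4273 UMIs in WT and 3558 in KO inside it and 5489 and 2267 outside it, and the part of depth in their Mrc1 shares was not tested.

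Dusp2, the deleted gene, checks the labels. Its level in the members was 51.1 CPM in WT and 1.38 CPM in KO, from 585 UMIs in 25.0% of WT members and 4 UMIs in 3 KO members. T barcodes, the richest of the compared classes in WT, held 436 and 2.27 CPM. Dusp2 RNA was thus nearly absent from both cell types of the KO library, as its label states. The labels do not say which exons were removed. Over the members thinned to 2000 UMIs it was found in 8.4% of both the Mrc1-positive and the Mrc1-negative WT cells.

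**Figure D1:**
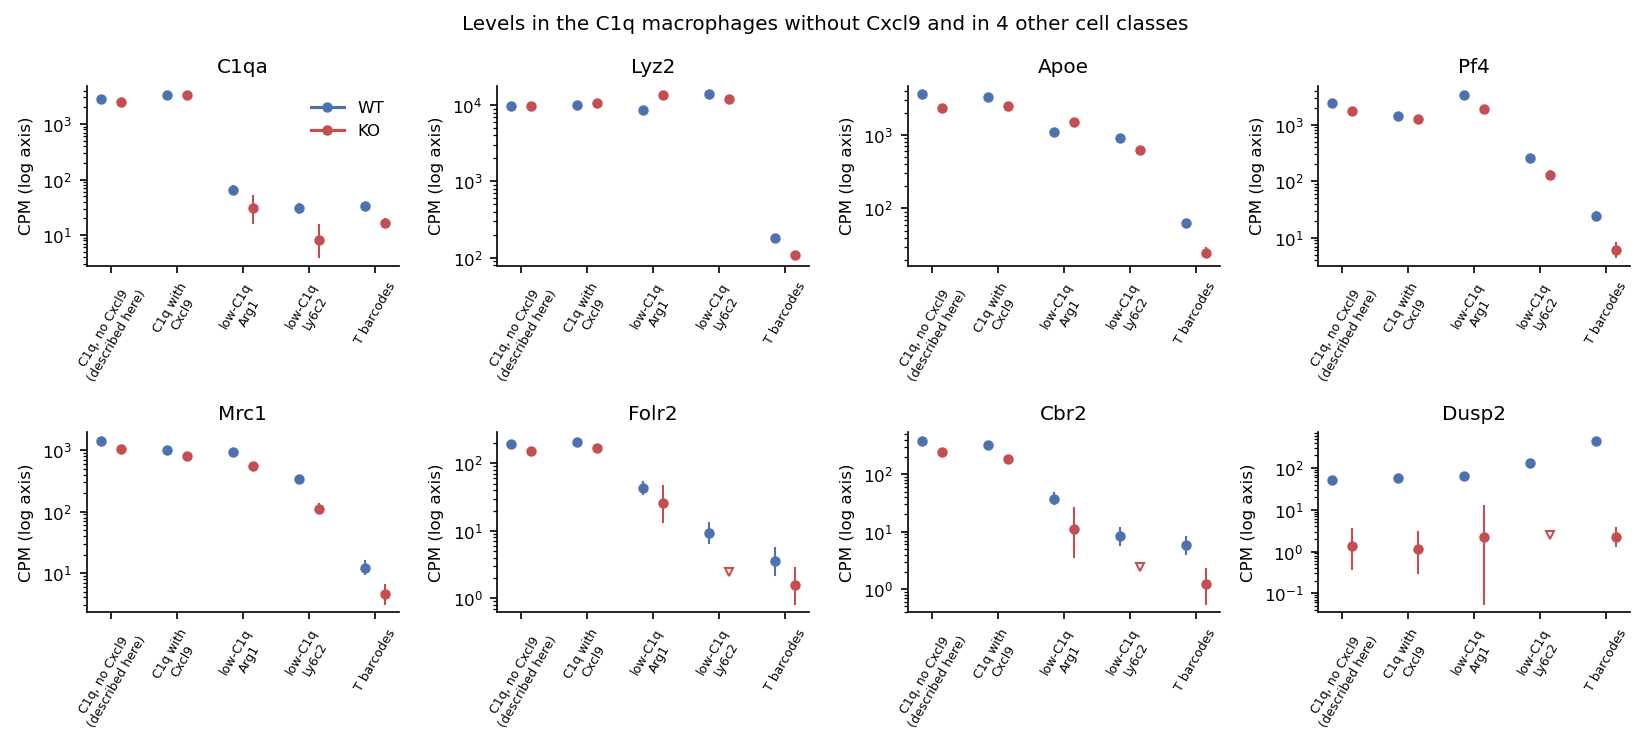
Levels in CPM on log axes of 8 genes in the C1q macrophages without Cxcl9, those with Cxcl9, low-C1q Arg1 cells, low-C1q Ly6c2 cells and T barcodes, for WT and KO. Bars are exact 95% Poisson intervals and an open triangle the level of 3 UMIs where none was found; the KO points of Mrc1, Folr2 and Cbr2 lie below the WT points in each class.

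Mrc1 RNA was lower per UMI in the KO members. Its level was 1409.6 CPM in WT and 1059.6 CPM in KO, a log2 KO over WT of -0.41 (-0.47 to -0.36). Every alternative reading gave a lower KO level, between -0.52 with each cell at 2000 UMIs and -0.32 with at least 20 C1q UMIs. The order of the classes by Mrc1 level was the same in both libraries: the members, then the C1q macrophages with Cxcl9 (1002 and 799 CPM in WT and KO), the low-C1q Arg1 cells (921 and 545 CPM) and the low-C1q Ly6c2 cells (335 and 112 CPM). None of these neighbouring intervals overlap. In KO 6 of the 157 low-C1q Ly6c2 barcodes held 2340 to 9277 UMIs of neutrophil genes each, and without barcodes of at least 20 such UMIs, an alternative chosen after seeing the data, the Mrc1 levels there were 335 and 117 CPM. The low-C1q classes have the same exclusions but under 10 C1q UMIs, with at least 5 Arg1 or at least 3 Ly6c2 UMIs. Of these classes the one without Cxcl9 thus had the highest Mrc1 level, a gene the rule did not read.

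Folr2 was also lower in KO, at 196 CPM in WT and 155 CPM in KO, log2 -0.35 (-0.50 to -0.20). With each cell at 2000 UMIs, so that cells count equally, the log2 was -0.66. In the C1q macrophages with Cxcl9 its level was 208 and 170.1 CPM, close to the members, and in the low-C1q Arg1 cells 43.0 and 26.3 CPM. The low-C1q Ly6c2 cells held 9.43 CPM in WT and no Folr2 UMI in KO, at least 3.82-fold lower against a floor of 3 UMIs in the library. Folr2 levels thus differed more between the C1q and low-C1q classes than with Cxcl9.

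Counted by cell, Mrc1 was detected in 93.9% (92.4 to 95.2) of WT and 82.9% (78.7 to 86.5) of KO members, and Folr2 in 53.1% (50.2 to 56.0) and 40.3% (35.3 to 45.3). The same genes gave at least 1 UMI in 7.17% and 1.84% of T barcodes for Mrc1, at median depths of 5490 and 5107 UMIs, and in 2.25% and 0.922% for Folr2. Member shares far exceeded this background. At 2000 UMIs per cell, which leaves out 26 WT and 19 KO members, Mrc1 was detected in 78.5% (76.0 to 80.8) and 69.9% (65.0 to 74.6), and Folr2 in 27.8% (25.3 to 30.5) and 18.6% (14.7 to 22.9). The gap between the libraries thus stayed at equal depth, with intervals that do not overlap.

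Read together, 617 WT members (52.2%) and 147 KO members (38.2%) had both genes, and 494 (41.8%) and 172 (44.7%) had Mrc1 alone. Folr2 without Mrc1 was seen in 11 and 8 cells. Nearly all Folr2-positive members therefore also held Mrc1 RNA. Neither gene was found in 61 WT members, 5.16% (3.97 to 6.57), and 58 KO members, 15.1% (11.6 to 19.0), and these had fewer UMIs, with medians of 7245 and 4282.5. The C1q sum followed the same order, with a median of 89 UMIs in WT and 70 in KO for cells with both genes, and 29 and 19 for cells with neither.

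**Figure D2:**
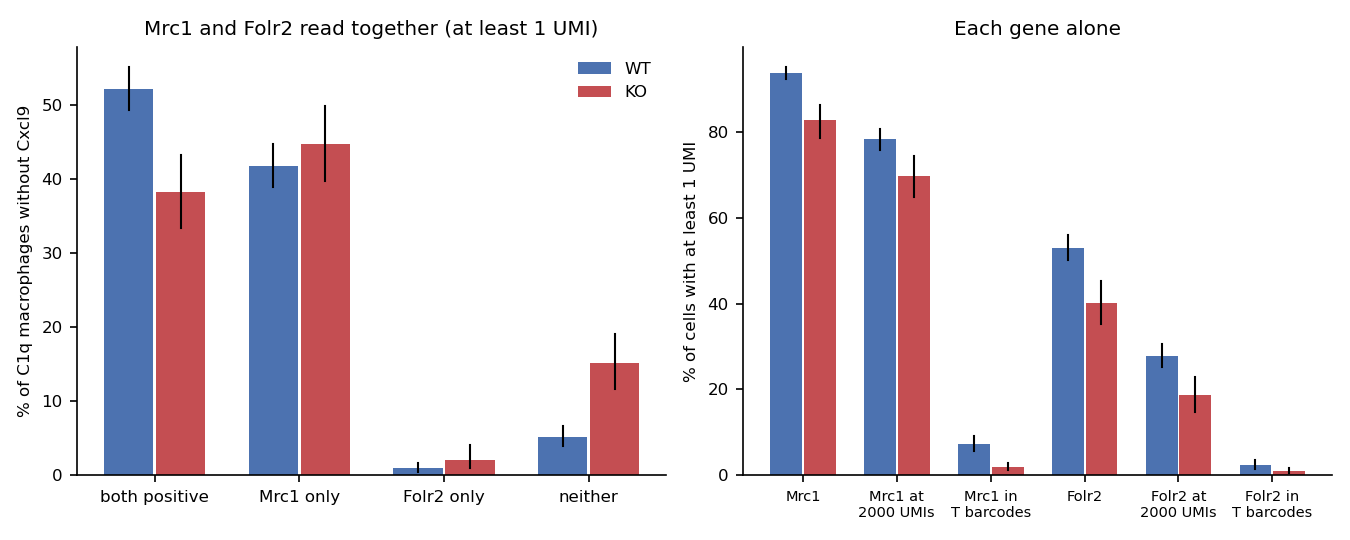
Left, percent of the C1q macrophages without Cxcl9 with both, either or neither of Mrc1 and Folr2 in WT and KO; right, percent with at least 1 UMI of each gene, with all UMIs, at 2000 UMIs per cell, and in T barcodes, with exact 95% binomial intervals as lines. Cells with both genes are 52.2% in WT and 38.2% in KO, and cells with neither 5.16% and 15.1%.

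Mrc1-positive members were compared with Mrc1-negative members within each library, as a description of what varies with Mrc1. Of 4131 genes compared, 44 (1.07%) were at least 2-fold higher in both libraries and 18 (0.436%) at least 2-fold lower. Ccl8, a chemokine that acts on monocytes and T cells, stood at 876 against 95.7 CPM in WT and 648 against 58.6 CPM in KO. Pf4 stood at 2478 against 426 CPM in WT and 1934 against 327 CPM in KO, and Folr2 itself at 204 against 37.1 CPM in WT and 171 against 24.7 CPM in KO. These 3 genes were higher in the Mrc1-positive cells of both libraries, with log2 ratios of 3.19 in WT and 3.47 in KO for Ccl8, 2.54 in WT and 2.56 in KO for Pf4 and 2.46 in WT and 2.79 in KO for Folr2. The chemokine Ccl7 (log2 1.85 in WT and 2.61 in KO), the carbonyl reductase Cbr2 (2.09 in WT and 3.47 in KO) and the neonatal Fc receptor Fcgrt (2.39 in WT and 2.47 in KO) came next. Serpinb6a, a serpin, and Snx24, a sorting nexin, closed the 8 highest, with 2.12 in WT and 2.45 in KO and 1.77 in WT and 2.13 in KO.

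Of 15 inflammatory genes 10 had intervals below 0 in both libraries, that is, higher levels in the Mrc1-negative members, and of 14 monocyte genes 6 did, where 4.41% of all 4131 genes did. The medians were -0.68 in WT and -0.54 in KO for the inflammatory list and -0.38 and -0.25 for the monocyte list, against 0.02 and 0.05 over all 4131 genes. Plac8, a gene of monocytes and activated leukocytes, stood at 55.1 against 363 CPM in WT and 51.0 against 457 CPM in KO in Mrc1-positive against Mrc1-negative cells, log2 -2.72 in WT and -3.16 in KO. Ly6c2, which marks classical monocytes, had log2 ratios of -1.93 in WT and -2.21 in KO. Slpi, a leukocyte protease inhibitor, had -1.77 in WT and -1.97 in KO, and Acod1, which makes itaconate, -1.57 in WT and -1.43 in KO. The cytokine Tnf (-1.31 in WT and -1.54 in KO), the interferon-induced Ifi205 (-1.64 in WT and -1.34 in KO), AA467197 (-1.35 in WT and -1.43 in KO) and Ms4a4c (-1.31 in WT and -1.47 in KO) complete the 8 lowest. Mrc1-negative cells were few, 72 in WT and 66 in KO, and shallower. With positivity and levels both read at 2000 UMIs, all 32 values of these 16 genes in the 2 libraries had the same sign, 28 were nearer 0 and 20 moved by over 1.5 times, for example Ccl8 0.72 in WT and 3.49 in KO, and Plac8 -1.25 and -2.06. The counts past 2-fold then were 16 and 4.

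Splitting by Folr2 gave more even groups, 628 positive and 555 negative cells in WT and 155 and 230 in KO. Of 4166 genes compared, 48 (1.15%) were at least 2-fold higher in both libraries in the Folr2-positive cells and 36 (0.864%) at least 2-fold lower. Ccl8 was again the leading gene, at 1344 against 142 CPM in WT and 1192 against 53.5 CPM in KO, log2 3.24 in WT and 4.48 in KO. Cbr2 followed at 593 against 78.5 CPM in WT and 468 against 54.2 CPM in KO, log2 2.92 in WT and 3.11 in KO. Gas6, a ligand that bridges dying cells to phagocytes, stood at 114 against 17.9 CPM in WT and 140.2 against 16.8 CPM in KO, log2 2.66 in WT and 3.06 in KO. Stab1, a scavenger receptor for dying cells and modified lipoproteins, had 1.75 in WT and 2.43 in KO. Fcgrt (1.99 in WT and 2.48 in KO), Serpinb6a (1.91 in WT and 2.62 in KO), the macrophage surface gene Ms4a7 (1.79 in WT and 2.47 in KO) and Wfdc17 (1.70 in WT and 1.99 in KO) were the others.

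Of 14 monocyte genes 10 had intervals below 0 in both libraries, so that their levels were higher in the Folr2-negative members, with medians of -0.67 in WT and -0.63 in KO. Il1r2, the decoy receptor for interleukin 1, stood at 28.0 CPM in Folr2-positive against 151 CPM in Folr2-negative cells of WT, log2 -2.43 in WT and -3.90 in KO. Areg, an epidermal growth factor family ligand, had -2.10 in WT and -3.50 in KO, Ly6c2 -2.03 in WT and -3.36 in KO, and the matrix proteoglycan Vcan -1.89 in WT and -2.12 in KO. Plac8 (-1.98 in WT and -1.95 in KO), the protease Napsa (-2.35 in WT and -1.90 in KO), coagulation factor F10 (-1.55 in WT and -1.81 in KO) and the arginine-making enzyme Ass1 (-1.71 in WT and -1.84 in KO) were also lower in the Folr2-positive cells. By list, 6 of 8 genes of MHC class II presentation had intervals below 0 in both libraries, with medians of -0.69 in WT and -1.02 in KO. Of 23 glycolysis and hypoxia genes 17 did so, with medians of -0.25 and -0.36, while 12 of 21 macrophage identity genes lay above 0 in both. Of all 4166 genes, 460 had intervals below 0 in both libraries and 609 (14.6%) above, and the medians were 0.02 and 0.03. With positivity and levels read at 2000 UMIs, all 32 values of the 16 named genes had the same sign and 19 moved by over 1.5 times, Ccl8 to 1.95 in WT and 2.60 in KO, and the counts past 2-fold were 8 and 19.

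At 2000 UMIs the same contrast can be read as cells. Pf4 was detected in 87.3% in WT and 83.8% in KO of Folr2-positive and 59.5% in WT and 47.3% in KO of Folr2-negative members, and Ccl8 in 51.2% in WT and 47.1% in KO against 21.8% in WT and 11.1% in KO. H2-Aa, an MHC class II chain, was detected in 84.2% in WT and 75.0% in KO against 88.9% in WT and 93.6% in KO. Arg1, which degrades arginine, was detected in 35.4% in WT and 39.7% in KO against 31.6% in WT and 33.9% in KO. Lyve1 was present in 4.97% in WT and 1.47% in KO of Folr2-positive members. The intervals of the Folr2-positive and Folr2-negative cells did not overlap for Pf4 and Ccl8 in either library. For H2-Aa they did not overlap in KO but did in WT, at 79.7 to 88.0 against 86.5 to 90.9, and for Arg1 they overlapped in both.

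**Figure D3:**
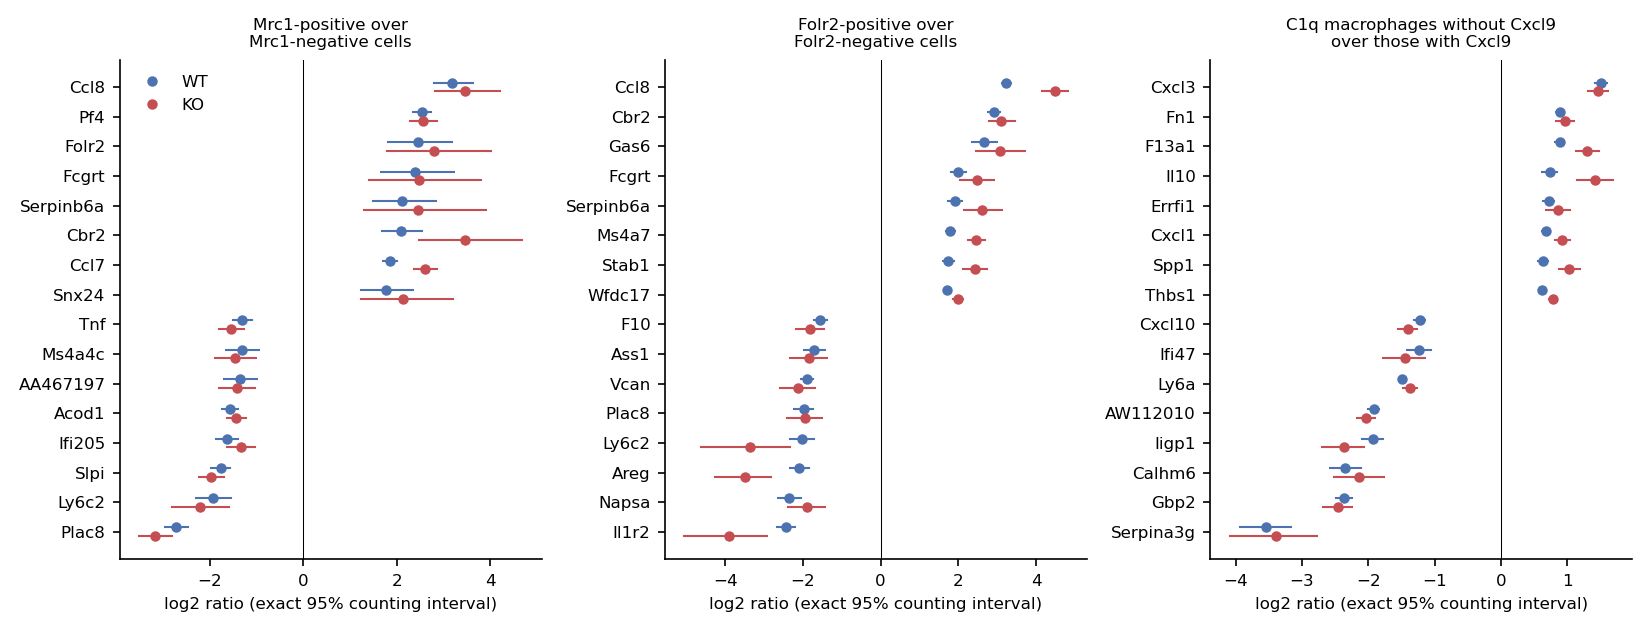
Log2 ratios with exact 95% counting intervals, for WT and KO separately, of the 16 genes named in each contrast: Mrc1-positive over Mrc1-negative cells, Folr2-positive over Folr2-negative cells, and C1q macrophages without Cxcl9 over those with Cxcl9. All 16 genes of each contrast have the same sign in WT and KO; Ccl8 reaches 4.48 in the Folr2 contrast in KO, and Serpina3g is lowest in the last contrast at -3.54 in WT.

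Next to the C1q macrophages with Cxcl9 (1045 cells in WT and 365 in KO), the members were lower in interferon-gamma response genes. The rule itself read Cxcl9 here, so genes that vary with it are described and not tested. Of 4295 genes compared, 16 (0.373%) were at least 2-fold lower in the members of both libraries and 1 (0.0233%), Cxcl3, at least 2-fold higher. Serpina3g stood at 5.59 against 65.0 CPM in WT and 7.61 against 79.9 CPM in KO, and the guanylate-binding protein Gbp2 at 57.4 against 295 CPM in WT and 71.6 against 394 CPM in KO. AW112010 (-1.92 in WT and -2.03 in KO), the GTPase Iigp1 (-1.93 in WT and -2.37 in KO), the channel gene Calhm6 (-2.34 in WT and -2.13 in KO), Ly6a (-1.48 in WT and -1.37 in KO), Cxcl10, a partner of Cxcl9 at the receptor Cxcr3 (-1.22 in WT and -1.41 in KO), and Ifi47 (-1.23 in WT and -1.45 in KO) were also lower. Of 20 interferon-gamma response genes compared, 19 had intervals below 0 in both libraries, with medians of -0.94 and -1.07. Of 21 MHC class I genes 19 did so, with medians of -0.42 and -0.43, and all 8 MHC class II genes did. Of all 4295 genes, 9.31% had intervals below 0 in both libraries and 12.1% above, and the medians were 0.02 and 0.04.

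Of 14 monocyte genes 9 had intervals above 0 in both libraries and none below, with medians of 0.32 in WT and 0.34 in KO. Cxcl3, a chemokine for neutrophils, stood at 317 against 111 CPM in WT and 413 against 150.2 CPM in KO, log2 1.51 in WT and 1.46 in KO. Cxcl1, of the same family, had 0.67 in WT and 0.93 in KO. Fibronectin, Fn1, stood at 489 against 264 CPM in WT and 397 against 203 CPM in KO, log2 0.89 in WT and 0.97 in KO. Thbs1, a matrix protein that activates TGF-beta (0.62 in WT and 0.79 in KO), and Spp1, osteopontin (0.64 in WT and 1.03 in KO), were higher as well. The transglutaminase F13a1 (0.88 in WT and 1.30 in KO), the receptor inhibitor Errfi1 (0.72 in WT and 0.86 in KO) and the cytokine Il10 (0.74 in WT and 1.41 in KO) completed the group. Thinned to 2000 UMIs before Cxcl9 was read, F13a1 was 0.77 in WT and 0.53 in KO and Il10 0.39 and 0.89.

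Between the libraries, few genes of the members differed by 2-fold. Of 4498 genes with at least 50 UMIs in a library and a mean of at least 30 CPM, 6 (0.133%) were at least 2-fold higher in KO and 16 (0.356%) at least 2-fold lower. The median log2 KO over WT was -0.05, with 1832 genes above 0 and 2666 below. Intervals lay above 0 for 562 genes (12.5%) and below 0 for 1129 (25.1%), and 59.3% of genes were lower in KO, the background of each list count given for the genotypes. With a mean of at least 10 CPM the counts past 2-fold were 22 and 55, and with no minimum 30 and 168. With each member at 2000 UMIs and the same minimum they were 7 and 47 of 4502 genes. More genes were lower than higher past 2-fold under each of these settings. The minimum of 50 UMIs is reached more easily in WT, whose members held 11441943 UMIs against 2890647 in KO. At the lower CPM limits and at 2000 UMIs it therefore admits genes high in WT more readily, and these counts cannot show a direction.

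Among the 11 genes reported as higher in KO, Mmp13, a collagenase, stood at 17.4 CPM in WT and 63.0 CPM in KO, log2 1.86 (1.56 to 2.15), while in the C1q macrophages with Cxcl9 it was 23.1 and 22.3 CPM, log2 -0.05. Its 182 KO UMIs came from 32 cells, 17.0% of them from 1 cell, and the log2 was 1.23 with the rule read at 4000 UMIs per cell. Ly6i, a GPI-anchored protein of the Ly6 family, stood at 15.4 CPM in WT and 51.9 CPM in KO, log2 1.75 (1.43 to 2.08). Ly6i was also higher in KO in the cells with Cxcl9, 1.09, the low-C1q Arg1 cells, 2.62, and the low-C1q Ly6c2 cells, 1.45.

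A pair of these genes serve glutathione. Slc7a11, the cystine importer, stood at 185 CPM in WT and 402 CPM in KO, log2 1.12 (1.02 to 1.22), and Gclc, the rate-limiting enzyme of glutathione synthesis, at 38.4 CPM in WT and 72.6 CPM in KO, log2 0.92 (0.68 to 1.16). In KO 1 cell gave 19.5% of the Gclc UMIs, and without the top cell of each library the log2 was 0.66. Both were also higher in KO in the C1q macrophages with Cxcl9, by 1.0 and 0.73, and lower in the low-C1q Arg1 cells, with log2 -0.94 and -1.59. Acod1 stood at 224 CPM in WT and 371 CPM in KO, log2 0.72 (0.62 to 0.83). The membrane protein gene Ifitm1 had 0.92 (0.81 to 1.02), and 0.45 with each cell at 2000 UMIs. Ifitm1 was also higher in KO in T barcodes, 1.85 (1.76 to 1.94), and in the cells with Cxcl9, 0.26 (0.15 to 0.36), so its difference was not particular to the members. Inhba, a subunit of activin A, had 0.83 (0.69 to 0.98). Junos had 1.13 (0.82 to 1.43). It lies opposite Jun, and the sources used do not say how strand was counted. Rnd3, an atypical small GTPase, Dock5, an activator of Rac, and Slc13a3, a carboxylate transporter, had 1.03, 0.97 and 0.90. Also higher in KO in the cells with Cxcl9 were Junos (1.55), Slc13a3 (1.13), Dock5 (0.98), Rnd3 (0.62), Acod1 (0.40) and Inhba (0.29).

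**Figure D4:**
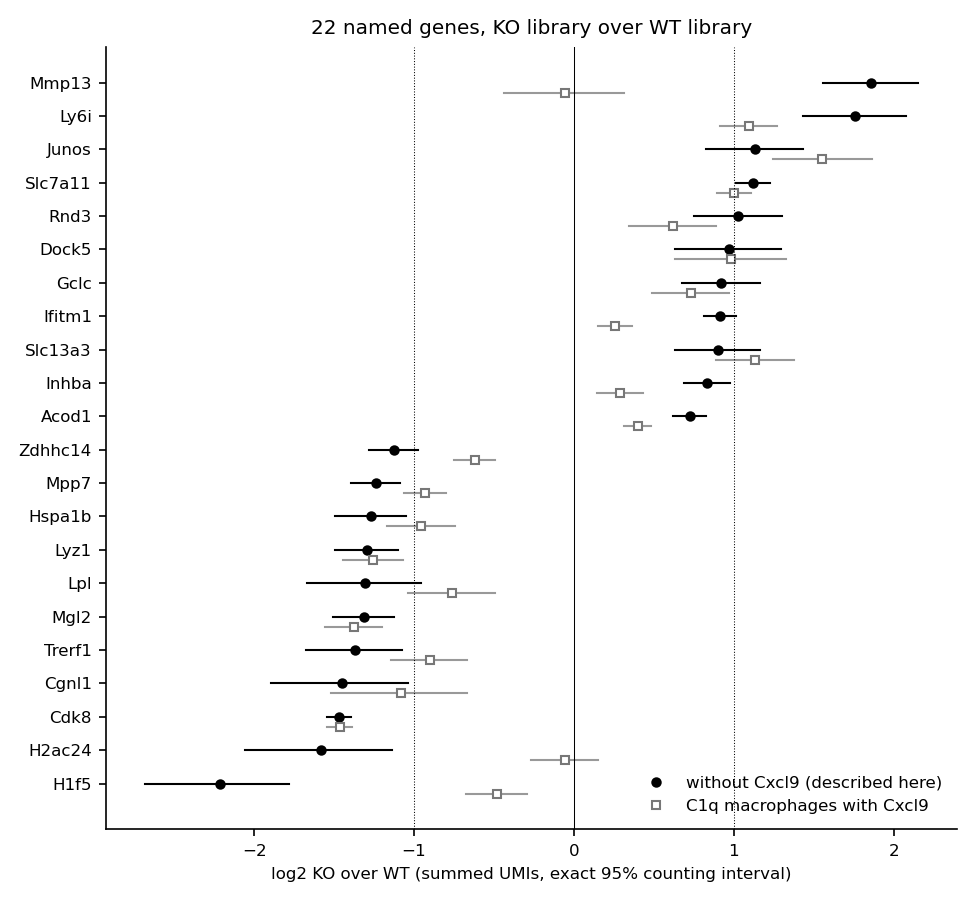
Log2 KO over WT with exact 95% counting intervals for the 22 named genes shown, in C1q macrophages without Cxcl9 (filled) and with Cxcl9 (open squares); dotted lines mark 2-fold. H1f5 at -2.22 is lowest and Mmp13 at 1.86 highest, and the Mmp13 and H2ac24 intervals in cells with Cxcl9 include 0.

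Among the 11 reported as lower in KO, the histone genes H1f5 and H2ac24 were among the lowest 3. H1f5 was at 72.3 CPM in WT and 15.6 CPM in KO, log2 -2.22 (-2.68 to -1.78), and H2ac24 at 46.6 CPM in WT and 15.6 CPM in KO, log2 -1.58 (-2.05 to -1.14). Histone transcripts of this kind are made in S phase. With at least 5 C1q UMIs as the rule, the log2 values were -1.17 and -0.98, H2ac24 was -1.0 without the 5% of members with most UMIs, and in cells with Cxcl9 -0.48 and -0.06. Cdk8, a kinase of the Mediator complex, stood at 1467 CPM in WT and 531 CPM in KO, log2 -1.47 (-1.54 to -1.39). Its KO level was lower in the T barcodes by a like amount, log2 -1.56, so the Cdk8 difference was not particular to macrophages.

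The other lower genes include a lectin, a lysozyme and a lipase. Mgl2, a galactose-type lectin (CD301b), stood at 214 CPM in WT and 86.1 CPM in KO, log2 -1.32 (-1.51 to -1.13). In KO 70 cells held Mgl2 RNA and 1 of them gave 21.7% of it. Mgl2 was lower in KO by a like amount in the cells with Cxcl9, -1.38, and also lower in T barcodes, -1.81. It was higher in KO in the low-C1q Arg1 cells, 1.09. Lyz1, a lysozyme gene near-identical in sequence to Lyz2 so that reads can be split between them, stood at 199.6 CPM in WT and 81.3 CPM in KO, log2 -1.30 (-1.50 to -1.10), and -0.56 when the rule was read at 4000 UMIs per cell and -0.85 with each member at 2000 UMIs. Lyz1 was lower in KO by a like amount in the cells with Cxcl9, -1.25. It was also lower in T barcodes, -3.43, from 25 WT and 3 KO UMIs, and higher in the low-C1q Ly6c2 cells, 1.72. Lyz2 itself was level in the members, log2 -0.01 (-0.03 to 0.01). Lpl, lipoprotein lipase, stood at 63.3 CPM in WT and 25.6 CPM in KO, log2 -1.31 (-1.67 to -0.96), and -0.87 at 2000 UMIs per cell. The heat shock gene Hspa1b had -1.27 (-1.49 to -1.05), with 13.8% of its WT UMIs in 1 cell. Its near-identical copy Hspa1a, from which it cannot be fully told apart, had -1.07 (-1.27 to -0.87). The others were Mpp7 (-1.24), Trerf1 (-1.37), Cgnl1 (-1.45) and Zdhhc14 (-1.13), each also lower in KO in the cells with Cxcl9. Lpl and Hspa1b were lower there as well, at -0.76 and -0.95.

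The C1q genes, which the rule used, differed little in log2: C1qa -0.17 (-0.20 to -0.13), C1qb -0.02 (-0.05 to 0.02) and C1qc 0.08 (0.04 to 0.12). Apoe and Pf4, which the rule did not read, were lower in KO, at 3562 CPM in WT and 2311 CPM in KO for Apoe, log2 -0.62 (-0.66 to -0.59), and 2386 CPM in WT and 1754 CPM in KO for Pf4, log2 -0.44 (-0.49 to -0.40). In cells with Cxcl9 the log2 values were -0.42 for Apoe and -0.16 for Pf4. Apoe, Pf4 and Mrc1 were thus each lower per UMI in KO members.

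The scavenger and resident-type receptor list held 13 genes that could be compared, of which 9 were lower in KO and 8 had intervals below 0, with a median of -0.35 against -0.05 over all genes. Cbr2 stood at 377 CPM in WT and 246 CPM in KO, log2 -0.62 (-0.73 to -0.50). The fatty acid receptor Cd36 stood at 129.8 CPM in WT and 77.1 CPM in KO, log2 -0.75 (-0.96 to -0.55), and the lectin Clec10a at 76.5 CPM in WT and 47.4 CPM in KO, log2 -0.69 (-0.96 to -0.43). F13a1 (-0.58) and Stab1 (-0.24) were lower as well. Clec7a, the beta-glucan receptor dectin-1, and Clec4n went the other way, 0.29 (0.19 to 0.38) and 0.25 (0.17 to 0.33), and Msr1 (0.06) and Selenop (-0.01) were near 0. The alternatively activated list had the lowest median, -0.53, with 10 of 12 genes lower and all 10 intervals below 0. Il4ra, the interleukin 4 receptor chain, was at 144 CPM in WT and 93.8 CPM in KO, log2 -0.62 (-0.81 to -0.44), the transcription factor Klf4 at 189 CPM in WT and 113 CPM in KO, log2 -0.74 (-0.92 to -0.57), and the chemokine Ccl24 at 60.04 CPM in WT and 31.8 CPM in KO, log2 -0.92 (-1.25 to -0.60), and -1.73 at 2000 UMIs per cell. Arg1 was not lower, 0.14 (0.07 to 0.21). The lists share Mrc1, Mgl2 and Clec10a.

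Some rarer genes of these lists fell under the 30 CPM minimum. Of 143 list genes below it, 6 had at least 50 UMIs in a library and an interval wholly past 2-fold, all lower in KO, Dusp2 among them. Each of the 6 reached the 50 UMIs in WT only, where members held more UMIs in all. The minimum thus favours genes high in WT, and the shared direction of the 6 is not a result. Chil3, a chitinase-like protein of alternatively activated macrophages, had 325 UMIs in 68 WT cells and 4 in 4 KO cells, log2 -4.36 (-6.24 to -2.99). Lyve1, a hyaluronan receptor of resident macrophages, had 123 UMIs in 58 cells and 6 in 3, log2 -2.37 (-3.85 to -1.21). The growth factors Igf1, 286 UMIs in 148 cells and 22 in 18, and Pdgfc, 236 in 144 and 18 in 16, had log2 -1.72 and -1.73. Ccl17, a chemokine of dendritic cells and macrophages, had 266 UMIs in 11 WT cells, 134 of them in 1 cell, and 1 in KO, log2 -6.07 (-11.38 to -3.58). These genes were picked out after their values were seen.

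MHC class II presentation, which shows peptides to CD4 T cells, had the highest list median, 0.16, with 7 of 8 genes higher in KO. Cd74, the invariant chain, stood at 12042 CPM in WT and 14589.8 CPM in KO, log2 0.28 (0.26 to 0.29), and H2-Aa at 4421 CPM in WT and 5106 CPM in KO, log2 0.21 (0.18 to 0.23). H2-DMb1, a peptide loading chain, had 0.31 (0.22 to 0.40), and the protease Ctss was the lower gene, -0.09 (-0.13 to -0.05). In the C1q macrophages with Cxcl9 H2-Aa was -0.01 (-0.03 to 0.02) and Cd74 0.15 (0.13 to 0.16). The share of Folr2-positive cells, in which MHC class II levels were lower, was 40.3% in KO and 53.1% in WT, and its part in these ratios was not tested.

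Among interferon genes the type I list had a median near that of all genes, and the interferon-gamma list a median above it. For interferon-gamma 12 of 17 genes were higher in KO, median 0.14, with Gbp2 at 57.4 CPM in WT and 71.6 CPM in KO, log2 0.32 (0.09 to 0.55), Ly6a at 0.32, the uridine phosphorylase Upp1 at 0.73 (0.54 to 0.91), and the costimulator Cd40 at -0.50 (-0.83 to -0.19). For type I interferon 11 of 23 genes were higher and 12 lower, median -0.02. Ifi27l2a stood at 465 CPM in WT and 343 CPM in KO, log2 -0.44 (-0.54 to -0.34), and Isg15 at 243 CPM in WT and 235 CPM in KO, log2 -0.05 (-0.17 to 0.07). Rsad2 (viperin) had 0.50 (0.34 to 0.67), but 1 KO cell held 47.6% of its 412 UMIs, and without the top cell of each library the log2 was -0.28. For MHC class I 13 of 20 genes were higher, median 0.12, led by the proteasome activator Psme2 at 301 CPM in WT and 433 CPM in KO, log2 0.53 (0.43 to 0.62). Intervals lay above 0 for 7 of 17 interferon-gamma, 4 of 23 type I and 8 of 20 MHC class I genes. They lay below 0 for 1, 5 and 1. Over all genes 12.5% lay above 0 and 25.1% below.

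Among signalling genes tied to the study's title, the NFAT and calcineurin list had 9 of 11 genes lower in KO, 6 with intervals below 0 and none above, median -0.25, where 59.3% of all genes were lower and 25.1% had intervals below 0. Rcan1, a calcineurin regulator that is itself an NFAT target, stood at 122 CPM in WT and 74.4 CPM in KO, log2 -0.72 (-0.93 to -0.51), and -1.0 without the top cell of each library. Nfatc2 stood at 39.2 CPM in WT and 24.6 CPM in KO, log2 -0.67 (-1.05 to -0.31), and Nfat5 at 269 CPM in WT and 216 CPM in KO, log2 -0.32 (-0.44 to -0.19). In the cells with Cxcl9 the values were -0.41 for Rcan1, -0.48 for Nfatc2 and -0.32 for Nfat5. Of the other dual-specificity phosphatases, 5 of 6 were lower, 3 with intervals below 0, median -0.24, with Dusp5 at 477 CPM in WT and 344 CPM in KO, log2 -0.47 (-0.57 to -0.38), Dusp16 at -0.48 and Dusp1 at 0.03 (-0.06 to 0.12). The ERK feedback and immediate-early list was split, 11 of 20 higher, median 0.04, with Fosb at 225 CPM in WT and 116 CPM in KO, log2 -0.96 (-1.13 to -0.79), Klf6 at 0.24 (0.16 to 0.32) and Junb at 0.09 (0.03 to 0.15).

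The lipid-associated list had 14 of 21 genes lower, near the 59.3% of all genes, median -0.12, with Apoe and Lpl above all and the galectin Lgals3 at 2491 CPM in WT and 1701 CPM in KO, log2 -0.55 (-0.59 to -0.51). Trem2, a lipid receptor, was level at 0.01 (-0.10 to 0.12), and Fabp4, a fatty acid carrier, was higher at 0.44 (0.15 to 0.72). Of 20 lysosomal genes 14 were lower, median -0.10, with cathepsin D, Ctsd, at 1056 CPM in WT and 757 CPM in KO, log2 -0.48 (-0.55 to -0.41), and cathepsin L, Ctsl, higher at 0.29 (0.24 to 0.33). Among efferocytosis genes 11 of 14 were lower, 8 with intervals below 0, median -0.20, with Dock1 at -0.57 (-0.84 to -0.31) and Lrp1 at -0.31 (-0.40 to -0.21), while Mertk was level at -0.00063 (-0.33 to 0.32). Intervals lay below 0 for 11 of 21 lipid, 11 of 20 lysosomal and 8 of 14 efferocytosis genes and above 0 for 4, 4 and 1. Over all 4498 genes they lay below 0 for 1129 (25.1%), a smaller share than in these lists, and above for 562 (12.5%). The median half-widths of the intervals were 0.16, 0.07 and 0.13 in the lists and 0.22 over all genes, and narrower intervals exclude 0 more easily.

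Of growth and angiogenic factors 10 of 13 were lower, median -0.21. Hbegf, a ligand of the epidermal growth factor receptor, stood at 123 CPM in WT and 55.4 CPM in KO, log2 -1.15 (-1.40 to -0.92), and Vegfa at 314 CPM in WT and 253 CPM in KO, log2 -0.31 (-0.43 to -0.20). Thbs1 had -0.33 (-0.37 to -0.29), and Inhba was the main exception. Of 15 inflammatory genes 10 were higher, where 40.7% of all genes were, median 0.05, with Il1a at 57.0 CPM in WT and 86.1 CPM in KO, log2 0.60 (0.38 to 0.81), and Slpi at 0.47 (0.33 to 0.61). Il1b was nearly level, 0.04 (0.01 to 0.07), and turned to -0.11 when the rule was read at 4000 UMIs. The glycolysis and hypoxia list had 14 of 23 genes higher, with Gapdh at 0.35 (0.32 to 0.38) and Slc2a1, the glucose transporter, at 0.41 (0.24 to 0.58), but Hilpda, a lipid droplet protein induced by hypoxia, at -0.71 (-0.88 to -0.53). The list median of 0.14 was 0.0045 with each cell at 2000 UMIs.

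Chemokines were mixed, 6 of 16 higher, median -0.09. Cxcl2, which draws neutrophils, stood at 6618 CPM in WT and 8243 CPM in KO, log2 0.32 (0.30 to 0.34), and Ccl8 at 841 CPM in WT and 582 CPM in KO, log2 -0.53 (-0.61 to -0.46). The same Ccl8 was higher in KO in the cells with Cxcl9, 0.52 (0.48 to 0.56), and 1 KO member without Cxcl9 held 17.3% of the Ccl8 UMIs. The difference between these classes was not tested. Ccl12 had -0.72 (-0.90 to -0.54) and Ccl6 -0.31 (-0.35 to -0.28). Monocyte genes had 10 of 14 lower, median -0.15, yet Plac8 was higher at 68.9 CPM in WT and 96.5 CPM in KO, log2 0.49 (0.28 to 0.69). Cell-cycle genes had 6 of 10 lower, as 59.3% of all genes were, and 4 higher, with Top2a at 66.9 CPM in WT and 33.6 CPM in KO, log2 -1.0 (-1.32 to -0.69), and Mki67 at 69.9 CPM in WT and 46.0 CPM in KO, log2 -0.60 (-0.88 to -0.34).

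The other lists lay near the median of all genes. Oxidative phosphorylation had -0.01 over 37 genes, macrophage identity -0.01 over 21, complement -0.02 over 9, checkpoint ligands and suppressive enzymes 0.05 over 17, iron and haem handling 0.08 over 8, heat shock 0.04 over 14, and matrix and proteolysis -0.13 over 14. Within them the transcription factor Cebpb was higher in KO, 1091 CPM in WT and 1520.4 CPM in KO, log2 0.48 (0.43 to 0.53), as were Ms4a7 at 0.38 (0.29 to 0.47) and Hmox1, haem oxygenase, at 0.33 (0.26 to 0.41). Csf1r had -0.26 (-0.36 to -0.16). The complement receptor C5ar1 was at 0.34 (0.26 to 0.42) and the complement component C3 at -0.40 (-0.57 to -0.23).

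The other genes at the ends of these lists were as follows, in log2 KO over WT. Ube2c, a ubiquitin-conjugating enzyme of mitosis, was the highest cell-cycle gene at 0.55 (0.25 to 0.84), but below 0 under 3 of the other readings. Dnajb1, a heat shock cochaperone, was the highest of its list at 0.55 (0.28 to 0.81). Parp14, an interferon-induced ADP-ribosyltransferase, was the lowest type I interferon gene at -0.70 (-0.94 to -0.46). Mmp19, a metalloproteinase, was the lowest matrix gene at -0.60 (-0.74 to -0.46). In iron handling transferrin, Trf, was at -0.44 (-0.57 to -0.32) and Blvrb, a biliverdin reductase, at 0.38 (0.28 to 0.48). The ends of oxidative phosphorylation were Ndufa4 at -0.33 (-0.45 to -0.21) and Sdhd at 0.20 (-0.03 to 0.42). The chaperone Calr was the lowest MHC class I gene at -0.24 (-0.33 to -0.16), and Pvr, a ligand of TIGIT, the lowest checkpoint gene at -0.37 (-0.66 to -0.08). Cabin1, a calcineurin inhibitor, was the highest of the NFAT list at 0.27 (-0.07 to 0.60), and the receptor Cd300lf the highest efferocytosis gene at 0.31, both with intervals that include 0.

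**Figure D5:**
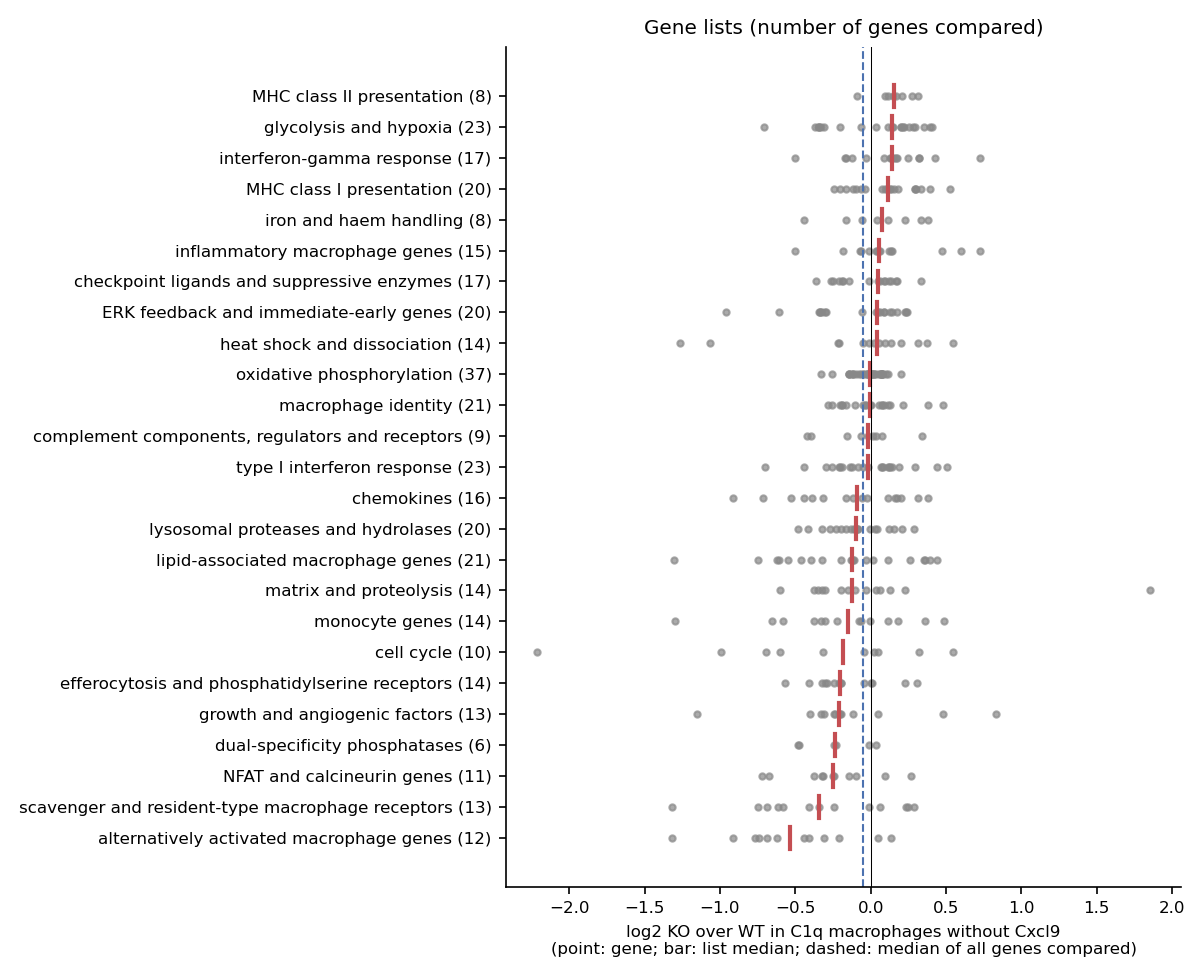
Log2 KO over WT in C1q macrophages without Cxcl9 of each gene compared in 25 lists (points), with the list median (bar), the number of genes, 0 (solid line) and the median of all 4498 genes (dashed line, -0.05). Medians run from -0.53 for alternatively activated genes to 0.16 for MHC class II presentation.

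With each member at 2000 UMIs, 1456 genes were ranked by the ratio of variance to mean, which is near 1 for counting noise alone. Retnla, a secreted protein of alternatively activated macrophages, was first, with ratios of 80.2 in WT and 91.3 in KO. It was found in 3.20% of WT and 1.64% of KO cells, with up to 164 and 130 of 2000 UMIs in a cell. In all UMIs, 79 WT members held Retnla, with 16.3% of it in 1 cell, and 7 KO members, with 43.8% in 1 cell. In T barcodes Retnla was found in 2.99% and 0.538%, against 6.68% and 1.82% of members at full depth. Most members thus had no detected Retnla RNA. The chemokine Cxcl2 was second, with ratios of 17.3 and 18.9, a median of 9 UMIs in WT and 11 in KO, and 90th percentiles of 32 and 37.

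Ccl8 came next with ratios of 13.8 and 14.03, found in 29.99% of WT and 17.8% of KO members. The ferritin chain Fth1 (13.3 and 13.7), the cytokine Il1b (13.1 and 14.6) and Cd74 (12.9 and 12.9) followed. Rsad2, Ccl4, Malat1, Pf4, Apoe and Ccl7 complete the 12 highest, with ratios between 8.74 and 14.5. By contrast Csf1r had 1.07 and 1.06, Mrc1 2.94 and 2.96, and Folr2 1.48 and 1.45. This ratio grows with a gene's level.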

How the data were processed

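The authors deposited 1 filtered matrix of raw UMI counts per library, whole numbers per gene and barcode with no normalization. The submitters' processing notes name Cell Ranger 6.0.1, Seurat 4.0.3 and 4.0.4 and the build mm10, while per the file headers the matrices come from Cell Ranger 8.0.1. No coordinates are given here. UMIs of the members were summed per library and divided by their total (CPM), and the log2 ratio of a gene between 2 sums was given an exact 95% interval, a method tested on simulated data (Python 3.11.15, numpy 2.4.6, scipy 1.17.1, pandas 2.3.3). Genes were compared with at least 50 UMIs in a library and a mean of at least 30 CPM, leaving out mitochondrial, ribosomal, haemoglobin, antibody and T-cell receptor genes, predicted genes and genes of the rule. Called means past 2-fold, a ratio of at least 1 or at most -1 in log2.

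Genes named between genotypes are the 12 per direction whose interval bound nearest 0 lies farthest from 0, of which 1 per direction is not reported here. For the other contrasts they are the 8 per direction by the nearer bound of the 2 libraries, for variation the 12 highest ratios with a mean of at least 0.2 UMI, and from the lists, where reported, the highest, the lowest and up to 2 of the highest level, besides Dusp2, Mrc1, Folr2, the C1q chains, Apoe, Pf4 and Lyz2. Further list members and Hspa1a were named after their values were seen. Members and lists were chosen with earlier results of these data known. No doublet caller was run: the rule leaves out barcodes with T, B or tumour UMIs, and an alternative leaves out the 5% of members with most UMIs. Cells were thinned with a fixed seed (7). Other alternatives changed the C1q, Cxcl9, gene, mitochondrial and CPM limits, the totals, and the depth at which the rule was read.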

Additional observations from a re-analysis of the deposited data

Results flagged for a closer look

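Some of the genes named as lower in KO among the C1q macrophages without Cxcl9 were at least 2-fold higher in KO in another cell class, with intervals that exclude 0. With 1 library per genotype the difference between the classes was not tested.

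The histone genes H1f5 and H2ac24, at log2 KO over WT -2.22 and -1.58 in the macrophages without Cxcl9, stood at 1.20 (0.57 to 1.81) and 2.53 (1.70 to 3.41) in the low-C1q Ly6c2 cells, from 58 WT and 39 KO UMIs for H1f5 and 20 and 34 for H2ac24. In that class the 10 neutrophil genes summed to 106 CPM in WT and 21152 CPM in KO, where 6 of 157 barcodes held 2340 to 9277 of their UMIs each. Without barcodes of at least 20 such UMIs, an alternative chosen after seeing the data, H1f5 was at 1.18 (0.55 to 1.80), H2ac24 at 2.21 (1.31 to 3.13), Lyz1 at 1.79 (1.25 to 2.32) and Hspa1b at 1.27 (0.94 to 1.58), and the neutrophil genes at 99.6 and 75.1 CPM. Conventional dendritic cell markers summed to 54.9 CPM in WT and 264 CPM in KO in the class, and their part in these values was not tested. The lysozyme gene Lyz1 was at -1.30 in the macrophages without Cxcl9 and at 1.72 (1.18 to 2.26) in the low-C1q Ly6c2 cells, from 62 and 60 UMIs. The lectin gene Mgl2 was at -1.32 and, in the low-C1q Arg1 cells, at 1.09 (0.52 to 1.64), from 93 and 41 UMIs. The heat shock gene Hspa1b was at -1.27 and, in the low-C1q Ly6c2 cells, at 1.25 (0.93 to 1.57), from 203 and 142 UMIs. In T barcodes Hspa1b was at 1.30 (1.15 to 1.46), from 454 and 1446 UMIs. In the C1q macrophages with Cxcl9, Mgl2 was at -1.38, Lyz1 at -1.25 and Hspa1b at -0.95, also lower in KO.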

How the results depend on the processing

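With 1 library per genotype every interval covers counting error only, and no setting below stands for a biological replicate. No paired analysis was possible because each genotype has 1 library. Shares of cells with a gene depend on depth, which was lower in KO.

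Of 266 alternative values of the shares, levels, list medians and counts, 219 stayed within their intervals or within 1.5 times of the count, 46 moved and 1 changed sign. The log2 of the members' share was -1.74 with the rule read at 4000 UMIs per cell and -0.22 over Lyz2 barcodes. The share of C1q macrophages without Cxcl9 was 50.8% in WT with at least 20 C1q UMIs, 58.8% at 4000 UMIs, 62.9% when 1 Cxcl9 UMI was allowed and 67.1% at 2000 UMIs. In KO it was 60.8% with 1 UMI allowed and 64.1% at 2000 UMIs. The Mrc1 level ratio was -0.32 with at least 20 C1q UMIs, -0.49 at 4000 UMIs, -0.48 without the 5% of members with most UMIs and -0.52 at 2000 UMIs, and that of Folr2 -0.66 at 2000 UMIs.

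The Mrc1-positive share was 90.6% (4000 UMIs), 78.5% (2000 UMIs) and 88.6% (at least 2 UMIs of the gene) in WT, and 88.5% (at least 20 C1q UMIs), 78.6% (at least 5 C1q UMIs), 69.9% (2000 UMIs) and 67.5% (at least 2 UMIs) in KO. The Folr2-positive share was 57.4%, 49.9%, 43.8%, 27.8% and 35.8% in WT, in the order 20 C1q UMIs, 5 C1q UMIs, 4000 UMIs, 2000 UMIs and 2 UMIs of the gene, and 48.0%, 34.8%, 18.6% and 23.9% in KO for the same settings without 4000 UMIs. Each of these shares was higher in WT than in KO under the same setting.

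The median of the chemokine list was -0.18 with at least 5 C1q UMIs, -0.18 without the 5% of members with most UMIs and 0.034 at 4000 UMIs, where it changed sign. That of MHC class II was 0.23 at 4000 and 0.21 at 2000 UMIs, of scavenger receptors -0.52 and of glycolysis and hypoxia 0.00452 at 2000 UMIs. Genes at least 2-fold lower in KO numbered 47 at 2000 UMIs, 55 at a mean of 10 CPM and 168 with no minimum, and genes 2-fold higher 22 and 30 for the last 2. Read at 2000 UMIs the counts in both libraries were 16 higher and 4 lower for the Mrc1 contrast, 8 and 19 for the Folr2 contrast, and 2 higher for the Cxcl9 contrast. With at least 2 UMIs against 0 the Cxcl9 contrast had 3 higher.

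Of 1069 alternative values for single genes 832 stayed within their intervals, 226 moved and 11 changed sign. With at least 20 C1q UMIs Ftl1 was -0.00433 and Il1b -0.058. At 4000 UMIs Arg1 was -0.12, Il1b -0.11, Oasl1 0.056 and Ube2c -0.26. Without the 5% with most UMIs Ube2c was -0.57. At 2000 UMIs Junb was -0.025, Rsad2 -0.40 and Ube2c -0.15. Without the member with most UMIs of the gene in each library, an alternative chosen after seeing the data, Rsad2 was -0.28. The values of 5 genes in low-C1q Ly6c2 cells without barcodes rich in neutrophil RNA, also chosen after seeing the data, stayed within their intervals. The cause of these changes was not tested. Genes above 0 were 40.7% of those compared between the genotypes, 46.5% with totals that leave out antibody, mitochondrial and ribosomal protein genes, and 42.3% at 2000 UMIs.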

Other observations

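Among the C1q macrophages without Cxcl9, Hmox1, which breaks down haem, was higher in Mrc1-positive than in Mrc1-negative cells in WT, log2 0.91 (0.68 to 1.14), and lower in KO, -0.40 (-0.58 to -0.22). In the Folr2 contrast Hmox1 was at 0.67 (0.59 to 0.74) in WT and -0.56 (-0.69 to -0.43) in KO. Other genes also had intervals on opposite sides of 0 in the Mrc1 contrast. Among them was Hspa1a, at 3.47 (2.49 to 4.68) in WT and -0.61 (-1.12 to -0.06) in KO. Retnla was at -0.29 (-0.52 to -0.05) in WT and 5.79 (3.30 to 11.09) in KO, where 7 cells held it and 1 gave 43.8% of it. Of the genes with opposite intervals, Hspa1a had the largest ratio in WT and Retnla the largest in KO. Hmox1 was picked out after its values were seen, the Mrc1-negative cells number 72 and 66, and the difference between the libraries was not tested.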
